A study of Mus musculus with 18 samples.

Results

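Tumors of the Alb-R26Met liver cancer mouse were compared between 5 tumors from mice of 59 weeks or less and 6 tumors from mice of 63 weeks or more. These 11 of the 18 samples sequenced were grouped by the age of the mouse. Tumor 2 was left out by a measured value, as given below. All mice were males that carried Alb-Cre, which expresses Cre recombinase from the albumin promoter and so in hepatocytes, and R26stopMet, a mouse-human chimeric Met transgene at the Rosa26 locus that Cre switches on. They were F1 animals of C57 and 129Sv background, were not treated, and were kept under a light and dark cycle. The younger group held tumors 11 and 12, both from 1 mouse of 49 weeks, and tumors 5, 8 and 3, from mice of 52, 55 and 59 weeks. The older group held tumors 4, 10, 9 and 1, from mice of 63, 67, 68 and 69 weeks, and tumors 6 and 7, from mice of 72 weeks, so that the 11 tumors came from 10 mice. Ages are those of the study's table of mice, and for tumors 3 and 10 the mouse number there differs from that in the labels. Tumor 2, from a mouse of 69 weeks, was left out because the gene listed as Siglece made up 82.9% of its total. Sample names carry a tag, E19 or E20, whose meaning is not given in the sources used here. The younger group held 3 E19 and 2 E20 tumors, and the older group 4 E19 and 2 E20 tumors. Livers of 4 mice of 52 to 58 weeks and of 2 mice of 69 and 71 weeks, which had the same genotype and no tumor, served as the background. Each tumor is titled as advanced, so age here is the age of the mouse at collection and not the age of the tumor.

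In Alb-R26Met mice a modest rise of the receptor tyrosine kinase MET in the liver leads to hepatocellular carcinoma that appears at different ages in different animals. Hepatocytes normally divide their work by position: those near the portal vein make urea and glucose, while those near the central vein receive Wnt signals and make glutamine. Aging tissue is commonly examined for the cell cycle inhibitors of the Cdkn2 locus, for inflammatory and interferon genes, and for the circadian clock, in which the activators Bmal1, Clock and Npas2 drive Per, Cry, Nr1d and Dbp genes that peak at another time of day.

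Poly-A RNA was sequenced, and each value is a TPM, a share of all transcripts corrected for gene length, that the authors rounded to a whole number. Totals ran from 849707 to 907513 in the 11 tumors. TPM do not keep the number of reads, so the depth behind a value is unknown and no counting error is given. Between 11508 and 12394 genes were above 0 in the E19 tumors and between 13270 and 13819 in the E20 tumors. Values below are divided by a scaling factor per sample, and a log2 fold change is the mean of log2(scaled value + 1) in younger tumors minus that in older tumors, which understates the change of genes near 0. Hepatocyte transcripts were abundant in every group. The 8 hepatocyte markers listed added up to between 57320 and 88690 in younger tumors and between 42340 and 88150 in older ones. In livers the sum was between 47190 and 65380, so it does not tell tumor from liver. The 4 Y chromosome genes listed were above 0 and Xist at 0 in all 11 tumors.

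No gene passed the test between tumors of younger and older mice. In limma, with p adjusted by Benjamini and Hochberg over 11380 genes, 0 were called at 0.05 (0% called, smallest adjusted p = 0.427). At an unadjusted p under 0.05 there were 208 (1.83%), of which 142 had higher and 66 lower values in younger tumors. With scaling by the median of ratios in place of the trimmed mean, the 202 genes at an unadjusted p under 0.05 were divided into 103 higher and 99 lower. The median log2 fold change was 0.04, with quartiles of -0.08 and 0.17, and 6733 genes (59.2%) were higher in younger tumors, which is the share to set beside each list below. The 95% interval of a gene's log2 fold change had a median half-width of 0.47, and it lay within 1 log2 unit of 0 in 9722 genes (85.4%). Fitted differences reached 1 log2 unit in 53 genes, 36 higher and 17 lower in younger tumors, and 0 of them passed. For comparison, the tag called 1388 genes in the same 11 tumors (12.2%, limma with the age group in the fit). In 6 genes every younger tumor lay above every older tumor (0.0527%), and in 3 every younger tumor lay below (0.0264%), on scaled values. Of these genes only Mtcl1 also stayed apart in deposited values, at 2 to 3 in younger and 0 to 1 in older tumors. The groups of the others overlapped or tied before scaling.

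**Figure D1:**
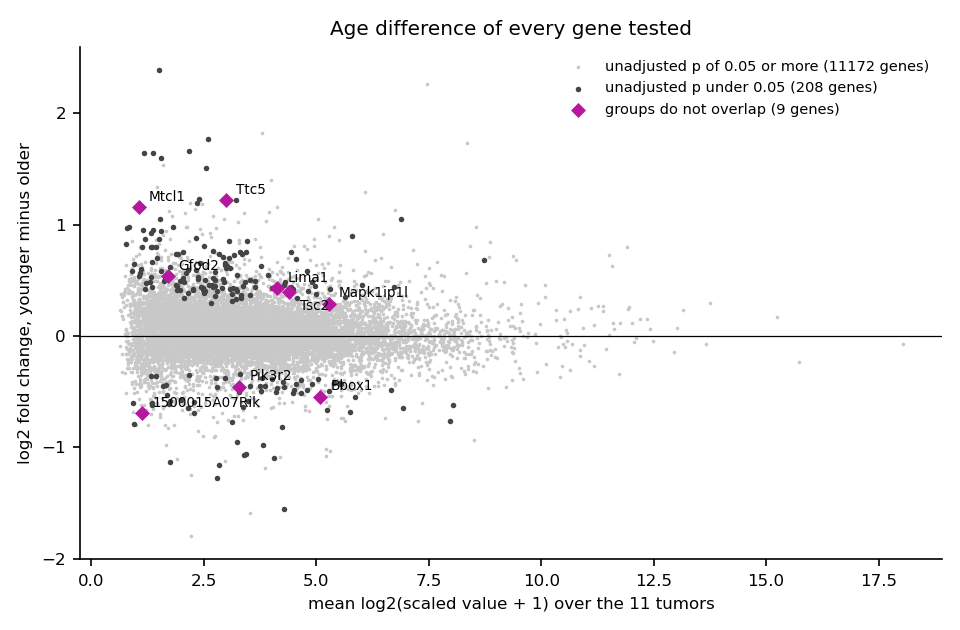
Each point is 1 of 11380 genes, with its mean log2(scaled value + 1) over the 11 tumors on the x axis and its log2 fold change, younger minus older, on the y axis. Dark points mark the 208 genes with an unadjusted limma p under 0.05. Diamonds mark the 9 genes whose groups do not overlap after scaling, and no gene passed the adjustment.

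Met, the driver of these tumors, was at 154, 138, 109, 81.0 and 137 in younger tumors 11, 12, 5, 8 and 3. In older tumors it ran from 112 to 166 with a median of 146, against 17.7 to 43.8 in the livers. The ranges of the age groups overlapped, and Met differed by a log2 fold change of -0.23 (95% interval -0.65 to 0.18, adjusted p = 1.0, limma). Met lies on chromosome 6 of GRCm38 from 17463349 to 17573980, and the table does not separate the transgene from the mouse gene. Among 27 tested genes of MET signaling and its ERK output, 12 were higher in younger tumors, with a median log2 fold change of -0.01 against 0.04 over all genes tested (0.05 without tumor 10), and 0 passed the test. Spry2, a feedback inhibitor of the ERK cascade, had the smallest unadjusted p of that list (0.10), with values of 7.2, 3.72, 0.914, 3.18 and 1.06 in younger tumors 11, 12, 5, 8 and 3 and of 0.964 to 2.36 in older ones.

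Ttc5, which encodes a tetratricopeptide repeat protein that acts in the degradation of tubulin mRNA, stood first in the ranking by p. It was at 15.8, 12.1, 10.96, 9.53 and 10.6 in younger tumors 11, 12, 5, 8 and 3, and at 3.29, 3.86, 4.88, 7.88, 3.99 and 3.69 in older tumors 4, 10, 9, 1, 6 and 7. After scaling every younger tumor was above every older tumor, while the deposited value was 10 in both younger tumor 3 and older tumor 1. In the livers Ttc5 ran from 3.11 to 10.6. The means were 11.8 ± 2.43 (SD, n = 5) and 4.60 ± 1.69 (SD, n = 6), a log2 fold change of 1.22 (standard error 0.20, 95% interval 0.79 to 1.65). Its adjusted p was 0.427 in limma, at an unadjusted p of 3.75e-05. The log2 fold change of Ttc5 was 1.44 in E19 tumors alone, 0.82 in E20 tumors alone and 1.16 with tumors 11 and 12 averaged. Leaving out older tumor 1, which had the highest older value, brought its adjusted p to 0.0251 (limma). Leaving out any other tumor gave an adjusted p of 0.2495 or more (limma). It was 0.658 with the tag as a covariate and 0.9999 with tumors 11 and 12 averaged (limma). Tumor 2, outside the groups at 69 weeks, had 11.8, within the range of the younger tumors. Its scaling factor was 0.17, so 1 deposited TPM is several units on this scale and the value is coarse. Ttc5 lies on chromosome 14 of GRCm38 from 50765409 to 50785520.

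Of the other genes with no overlap, Tsc2, whose protein restrains mTORC1 as part of the tuberous sclerosis complex, was at 21.6, 25.1, 19.2, 29.4 and 23.4 in younger tumors 11, 12, 5, 8 and 3. In older tumors Tsc2 ran from 15.4 to 18.9 with a median of 17.8, and in livers from 13.1 to 31.1. Its log2 fold change was 0.40 (95% interval 0.10 to 0.70, adjusted p = 1.0, limma). In livers the age difference of Tsc2 was -0.65 on the same scale, and the difference between tumors and livers did not pass (adjusted p = 0.875, limma). Lima1, an actin-binding protein, ran from 16.7 to 27.6 in younger and from 9.64 to 16.6 in older tumors, so that the groups almost touched. Its log2 fold change of 0.43 was 0.33 without tumor 10, which had the lowest value. Mapk1ip1l ran from 41.4 to 43.2 in younger tumors and from 29.2 to 40.9 in older ones, with a log2 fold change of 0.29 (95% interval -0.01 to 0.59). Mtcl1, which cross-links microtubules, and Gfod2 were both low. Mtcl1 was at 2.88, 2.79, 1.83, 1.59 and 2.13 in younger tumors 11, 12, 5, 8 and 3, at most 1.23 in older ones and at 0 in every liver, and Gfod2 was at least 2.38 in younger and at most 2.36 in older tumors. A deposited step of 1 TPM is of the size of these gaps.

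Bbox1, the enzyme of the last step of carnitine synthesis, was at 20.2, 28.8, 27.4, 31.8 and 25.5 in younger tumors 11, 12, 5, 8 and 3. In older tumors it ran from 32.3 to 47.2 with a median of 38.5, and in livers from 29.3 to 67.2. After scaling every younger tumor was thus below every older one, while deposited values overlapped, at 14 to 40 and 31 to 45. The log2 fold change was -0.54 (standard error 0.16, 95% interval -0.88 to -0.21, adjusted p = 1.0, limma). Pik3r2, a regulatory subunit of PI3 kinase, ran from 6.38 to 7.94 in younger tumors and from 8.67 to 17.2 in older ones, with a log2 fold change of -0.46 (95% interval -0.83 to -0.08). Its highest value was in older tumor 7. 1500015A07Rik was at most 1.06 in younger and at least 1.097 in older tumors. Both of these values were a deposited 1 TPM divided by different scaling factors, so the groups tied before scaling. Mtcl1, Gfod2 and 1500015A07Rik were named after their values were seen.

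**Figure D2:**
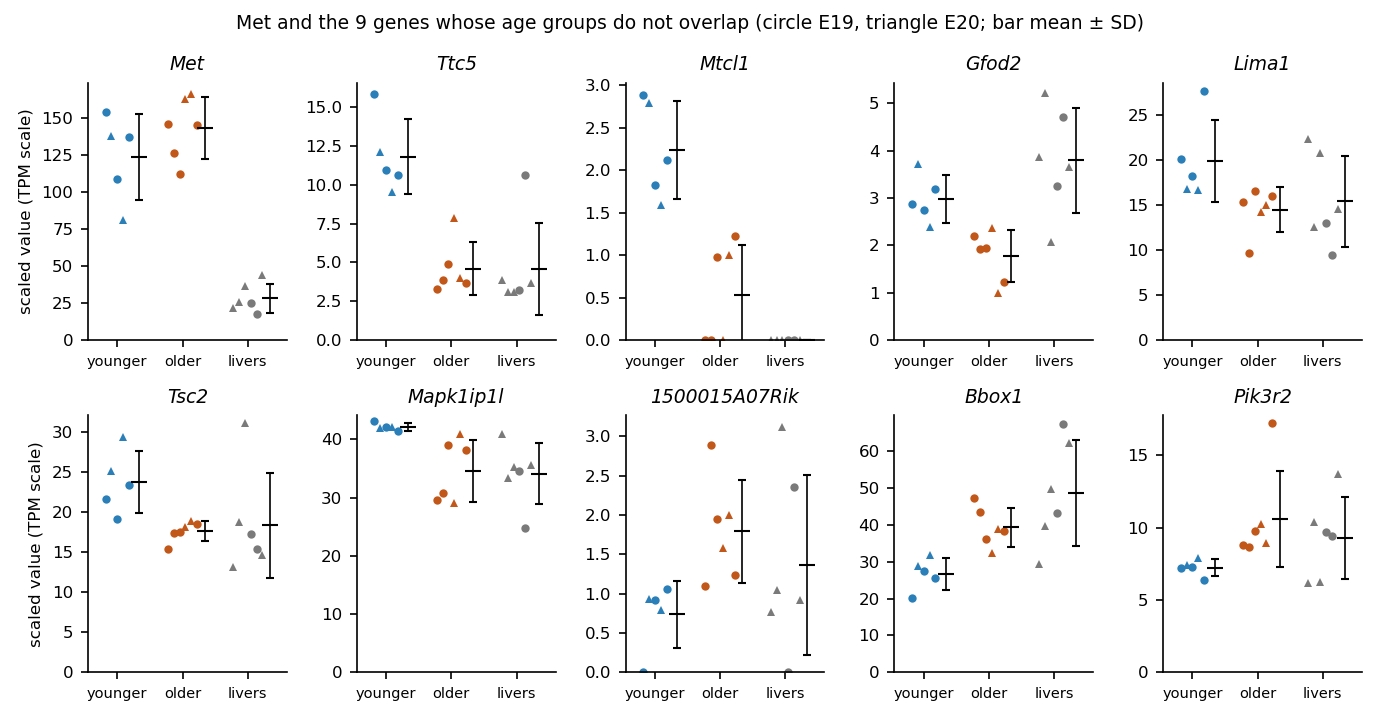
Scaled values of Met and of the 9 genes whose age groups do not overlap, 1 point per sample in 5 younger tumors (blue), 6 older tumors (orange) and 6 livers (gray), with the mean ± SD beside each group and bars ending at 0. Circles are E19 and triangles E20, and Met is the only gene shown in which the age groups overlap and both lie above all livers.

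Several genes with overlapping groups had larger differences, and 4 of them were named after their values were seen. Loxl4, a lysyl oxidase that cross-links collagen, was at 11.5, 12.1, 10.96, 3.18 and 13.8 in younger tumors 11, 12, 5, 8 and 3 and from 1.23 to 5.85 in older ones. Only younger tumor 8 fell within the older range, and livers were at most at 1.08. The log2 fold change was 1.51 (95% interval 0.75 to 2.26, adjusted p = 1.0, limma). Myo5c, a class V myosin of secretory epithelia, was above 0 in all 5 younger tumors, from 1.44 to 8.50, and in 2 of 6 older ones, with a log2 fold change of 1.64. Cxcl14, a chemokine, had a log2 fold change of -1.56, with 8.64, 5.58, 13.7, 3.97 and 29.8 in younger tumors 11, 12, 5, 8 and 3 and with 13.95 to 46.8 in older ones. Hamp, the iron hormone hepcidin, had a log2 fold change of 2.26 with a 95% interval from -0.65 to 5.18, since older tumors ran from 0.964 to 1354 and younger ones from 54.7 to 1632. Both groups lay below the livers, which were at 2893 to 5752. None of these 4 genes passed the test.

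In bulk tissue, fewer cells of a type and less RNA per cell cannot be told apart, which bears on every list below. Among lists of at least 5 tested genes, the periportal list had the highest and the pericentral list the lowest median, and both rested on 1 tumor. All 19 tested periportal genes were higher in younger tumors, with a median log2 fold change of 0.55 against 0.04 over all genes, while 5 of 19 pericentral and Wnt target genes were higher, with a median of -0.29. No member of either list had an unadjusted p under 0.05. Without tumor 10, the medians were -0.15 (6 of 19 higher) and 0.22 (13 of 19 higher), so both directions turned. In E19 tumors alone they were 0.82 and -1.40, and in E20 tumors alone, which do not include tumor 10, they were 0.05 and 1.11.

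Tumor 10, from a mouse of 67 weeks, stood apart in both lists. It lay above the other 10 tumors in 20 of 22 pericentral genes and below them in 17 of 19 periportal genes. Glul, the glutamine synthetase of the hepatocytes next to the central vein, was at 5921 in tumor 10, between 19.7 and 283 in the other 10 tumors and between 215 and 446 in livers. Axin2, a feedback gene of Wnt signaling, was at 33.7 against at most 3.18 in the others, and Sp5, another Wnt target, was at 16.4 against 0. Lect2, the pericentral gene with the smallest unadjusted p, was at 652 in tumor 10 and between 11.5 and 66.3 in the others, and its log2 fold change of -1.03 became -0.31 without that tumor and 1.12 in E20 tumors alone. Cps1, the entry enzyme of the urea cycle, was at 2.89 against 365 to 1025 in the others. Cyp2f2, a periportal P450 enzyme, was listed at 0 against 22.1 to 246, and its log2 fold change of 1.29 (95% interval -1.17 to 3.76) became 0.19 without tumor 10. Aldh1b1 stands in both lists and was at 0 in tumor 10. Genes other than Lect2 and Cyp2f2 in this paragraph were named after their values were seen.

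Medians of other liver lists also moved without tumor 10. Of 24 genes of the urea cycle and amino acid breakdown, 17 were higher in younger tumors with a median log2 fold change of 0.22, and without tumor 10 the count was 5 and the median -0.13. Gldc, of glycine breakdown, had a log2 fold change of 1.05 that became 0.14. Among 33 cytochrome P450 enzymes, 22 were higher with a median of 0.19, which became -0.02 without tumor 10. In E19 tumors alone 12 were higher with a median of -0.34, and in E20 tumors alone 20 with a median of 0.91. Cyp2d9, a male-biased steroid hydroxylase, ran from 44.6 to 185 in younger and from 124 to 339 in older tumors, a log2 fold change of -0.76 (95% interval -1.57 to 0.04). Of 21 male-biased liver genes, which respond to the male pattern of growth hormone, 18 were higher in younger tumors with a median of 0.35, and without tumor 10 the median was 0.13. Elovl3, an elongase of fatty acids in that list, was at 7.2, 50.2, 1.83, 4.76 and 32.9 in younger tumors 11, 12, 5, 8 and 3 and at most 15.4 in older ones. Its log2 fold change was 1.77 (95% interval 0.06 to 3.48, adjusted p = 1.0, limma), and tumors 11 and 12, of 1 mouse, had 7.2 and 50.2. Of 12 female-biased liver genes, 7 were higher, with a median of 0.13 that became -0.06 without tumor 10. The lists of hepatocyte secreted proteins (25 genes, median 0.04), of cholesterol and fatty acid synthesis (37 genes, median -0.04) and of fatty acid oxidation (30 genes, median 0.01) lay close to the median of all genes over the 11 tumors, but not within each tag. Synthesis genes had a median of 0.19 (26 of 37 higher) in E19 tumors and of -0.36 (10 of 37) in E20 tumors, and oxidation genes of -0.16 (9 of 30) in E19 tumors and of 0.45 (21 of 30) in E20 tumors. Cpt2, of mitochondrial fatty acid import, had a log2 fold change of 0.29 (95% interval -0.17 to 0.76).

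**Figure D3:**
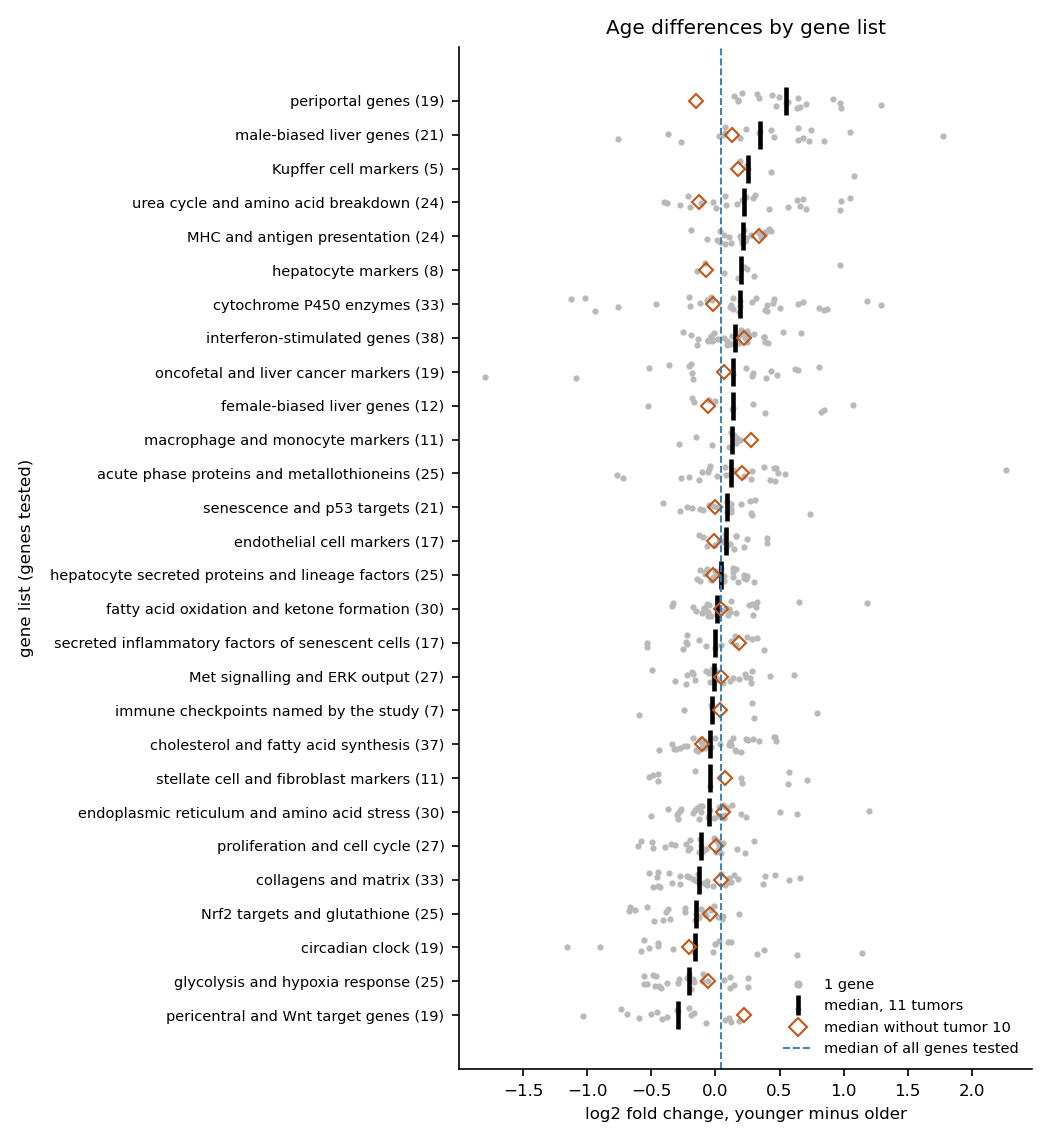
Log2 fold changes, younger minus older, of the tested genes of each list with at least 5 of them (gray points), their median over the 11 tumors (black bar) and their median without tumor 10 (open diamond), with the median of all genes as a dashed line. The median of the periportal list moves from 0.55 to -0.15 and that of the pericentral list from -0.29 to 0.22 when tumor 10 is left out.

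No cell cycle gene passed the test. Of 27 tested cell cycle genes, 10 were higher in younger tumors with a median log2 fold change of -0.11, 0 had an unadjusted p under 0.05, and without tumor 10 the median was 0.006. E2f1, a transcription factor of the entry into S phase, ran from 0.930 to 3.19 in younger and from 1.097 to 4.88 in older tumors, with a log2 fold change of -0.58 (95% interval -1.22 to 0.05). Pcna, the sliding clamp of DNA polymerase, and Ccnd1, cyclin D1, had log2 fold changes of -0.49 each, with 95% intervals of -1.08 to 0.11 and -1.17 to 0.19. In E20 tumors alone, 2 of the 27 genes were higher and the median was -0.67, while in E19 tumors it was 0.05.

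Among 21 genes of senescence and p53 targets, 13 were higher in younger tumors (61.9%, against 59.2% of all genes) with a median of 0.09. Without tumor 10 there were 10 with a median of -0.002, and in E20 tumors alone 8 with a median of -0.18. Cdkn2b, which encodes the cell cycle inhibitor p15, was at 21.6, 10.2, 15.5, 8.73 and 9.56 in younger tumors 11, 12, 5, 8 and 3. In older tumors it ran from 4.39 to 11.1 with a median of 6.30, and it was listed at 0 in every liver. The ranges overlapped, and the log2 fold change of 0.74 (95% interval 0.15 to 1.33, unadjusted p = 0.0185) had an adjusted p of 1.0 in limma. Of 17 secreted inflammatory factors, 8 were higher with a median of -0.004. Tumor 10 had the highest mean log2 level of this list (3.07, against at most 2.39 in the other tumors), and without it 12 were higher with a median of 0.18. Icam1, an adhesion molecule for leukocytes, had the smallest p with a log2 fold change of 0.33 (95% interval -0.19 to 0.84).

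Of 19 tested oncofetal and liver cancer markers, 11 were higher in younger tumors (57.9%, against 59.2% of all genes), with a median log2 fold change of 0.13 that became 0.06 without tumor 10. Igf2, a fetal growth factor, had the lowest log2 fold change of the list and of all genes tested, -1.80 with a 95% interval from -4.05 to 0.46. It was at 1.44, 0.930, 0.914, 7.14 and 0 in younger tumors 11, 12, 5, 8 and 3, and at 1.097, 35.7, 4.88, 0, 113 and 4.92 in older tumors 4, 10, 9, 1, 6 and 7. The older mean was thus set by tumors 6 and 10. Gpc3, a fetal proteoglycan named after its values were seen, ran from 5.76 to 18.1 in younger and from 2.20 to 179 in older tumors and was at 0 in every liver. The highest Gpc3 value was again in tumor 10, and its log2 fold change of -1.09 became -0.52 without that tumor.

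Genes of antigen presentation were higher in younger tumors in 22 of 24, with a median log2 fold change of 0.21 against 0.04 and 59.2% over all genes, and 0 of them had an unadjusted p under 0.05. The mean log2 level of this list ran from 4.97 to 6.21 in younger and from 4.82 to 6.15 in older tumors, so the groups overlapped. Tumor 5 had the highest younger and tumor 10 the highest older level, and these tumors also had the highest T and natural killer cell marker sums, 53 and 35.7 against at most 5.49 in the other 9 tumors. The chemokine Ccl5 made up 32.9 and 16.4 of these sums, while Cd3e was at most at 1.83 in younger and 3.86 in older tumors. The part of T and natural killer cells in the list's difference was not tested, and without tumor 10 the median of the list was 0.34. In E20 tumors alone 11 of 24 were higher with a median of -0.02. Tap2, which carries peptides to MHC class I, had the smallest p, with a log2 fold change of 0.36 (95% interval -0.11 to 0.83). Of 38 interferon-stimulated genes, 27 were higher in younger tumors with a median of 0.15, 35 in E19 tumors alone and 6 in E20 tumors alone, and tumor 5 again had the highest mean log2 level (3.85). Irf9, the DNA-binding part of the interferon signal complex, had a log2 fold change of 0.41 (95% interval -0.04 to 0.85). Among the 16 immune-checkpoints that the study names, 7 could be tested, and 3 of these were higher. Cd40, a receptor of antigen-presenting cells, was at 2.88, 2.79, 4.57, 1.59 and 2.13 in younger tumors 11, 12, 5, 8 and 3, from 0 to 2.99 in older ones and at most at 1.04 in livers. Its log2 fold change was 0.80 (95% interval 0.12 to 1.47, unadjusted p = 0.0242, adjusted p = 1.0, limma) and -0.03 in E20 tumors alone.

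The median was below 0 in the lists of glycolysis, of Nrf2 targets and of endoplasmic reticulum stress, in which 0 genes passed the test. Only 6 of 25 genes of glycolysis and the hypoxia response were higher in younger tumors, with a median of -0.21 that became -0.06 without tumor 10. Gpi1, glucose phosphate isomerase, had a log2 fold change of -0.44 (95% interval -0.92 to 0.03), with its highest value, 214, in tumor 10. Of 25 Nrf2 targets and glutathione genes, 4 were higher with a median of -0.15, which became -0.04 without tumor 10, and Gstp1, a glutathione transferase, had a log2 fold change of -0.37 (95% interval -0.78 to 0.05). Of 30 genes of endoplasmic reticulum and amino acid stress, 13 were higher with a median of -0.05, which became 0.06 without tumor 10. Mthfd2, of mitochondrial folate metabolism, was at 8.64, 4.65, 12.8, 3.18 and 9.56 in younger tumors 11, 12, 5, 8 and 3 and from 0 to 8.67 in older ones, a log2 fold change of 1.20 (95% interval 0.08 to 2.31). Ddit4, an inhibitor of mTORC1 induced by stress, ran from 27.9 to 35.1 in younger and from 29.6 to 70.1 in older tumors, a log2 fold change of -0.50 (95% interval -0.97 to -0.03). Of 25 acute phase proteins and metallothioneins, 16 were higher with a median of 0.12. Apcs, the serum amyloid P component, ran from 112 to 358 in younger and from 252 to 460 in older tumors, with a log2 fold change of -0.77 (95% interval -1.39 to -0.15). In livers Apcs differed by 1.44, in the other direction, and the difference between tumors and livers had an adjusted p of 0.875 (limma). Unadjusted p in tumors were 0.0377, 0.0384 and 0.0191 for Mthfd2, Ddit4 and Apcs, and all had an adjusted p of 1.0.

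Markers of other cell types overlapped between the age groups in all 11 lists other than that of hepatocytes. The 8 Kupffer cell markers added up to between 38.9 and 104 in younger and between 33.7 and 88.9 in older tumors, and the 14 macrophage and monocyte markers to between 76.3 and 296 and between 66.2 and 342. Within the Kupffer cell sums, C6 alone was at 28.3 to 39.1 in younger and at 14.6 to 54.9 in older tumors. All 5 tested Kupffer cell markers were higher in younger tumors, with a median of 0.25. In E19 tumors alone 3 of 5 were higher with a median of 0.13, and in E20 tumors alone all 5 with a median of 0.76. Clec4f, a Kupffer cell lectin, had a log2 fold change of 1.08 (95% interval -0.31 to 2.47). Endothelial markers were higher in 13 of 17 with a median of 0.08, in 8 with a median of -0.01 without tumor 10 and in 8 with a median of -0.06 in E20 tumors alone. Plvap, of the diaphragms of capillary pores, ran from 26.1 to 40.2 in younger and from 18.3 to 27.4 in older tumors (log2 fold change 0.40, 95% interval 0.05 to 0.75). Stellate cell and fibroblast markers were higher in 5 of 11 with a median of -0.04, which became 0.08 without tumor 10, and Pdgfra, a growth factor receptor of these cells, was at most at 2.79 (log2 fold change 0.56). Collagens and matrix genes were higher in 12 of 33 with a median of -0.12, and without tumor 10 in 19 with a median of 0.04. Mmp14, a membrane-bound matrix protease, had a log2 fold change of 0.46 (95% interval -0.077 to 1.004). Sox9, of the cholangiocyte and progenitor list of which 3 genes were tested, had one of 0.48 (95% interval -0.28 to 1.24), while the defining cholangiocyte gene Krt19 was at most at 0.964 in any tumor.

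Lymphoid and granulocyte markers were near 0. Of the 9 neutrophil markers in the table, S100a8 alone was tested, at 0, 0, 1.83, 0 and 1.06 in younger tumors 11, 12, 5, 8 and 3 and from 0.788 to 2.20 in older ones (log2 fold change -0.79). Ighm, the heavy chain of IgM, ran from 1.44 to 4.25 in younger and from 2.93 to 28.0 in older tumors, with a log2 fold change of -1.27 (95% interval -2.23 to -0.32, unadjusted p = 0.0129, adjusted p = 1.0, limma) that became -0.98 without tumor 10. The 14 B cell and plasma cell markers in the table added up to between 65.1 and 127 and between 82.7 and 144. The 16 T and natural killer cell markers added up to between 1.44 and 53 in younger and between 0.975 and 35.7 in older tumors, and the 8 mast cell markers to at most 1.06 and at most 64.6. The T cell sum of 53, of which Ccl5 made up 32.9, was that of younger tumor 5, where the other younger tumors had at most 3.19. The sums of 35.7 for T cell and 64.6 for mast cell markers were both those of tumor 10, where the next older tumors had 5.49 and 3.99, and the part of these cells in the differences was not tested. Of 2 tested dendritic cell markers both were higher in younger tumors, by a median of 0.14, and without tumor 10 neither was, with a median of -0.10. All 4 tested red blood cell markers were lower in younger tumors, with a median of -0.60, and summed levels ran from 15.9 to 36.0 and from 13.7 to 59.8.

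Ddx3y, an RNA helicase on the Y chromosome, was at 20.2, 2.79, 1.83, 12.7 and 4.25 in younger tumors 11, 12, 5, 8 and 3. In older tumors it ran from 10.6 to 16.5 and in livers from 11.8 to 16.6. Thus 3 younger tumors lay below every older tumor and every liver, and the other 2 did not. The log2 fold change was -1.07 (95% interval -2.03 to -0.12, unadjusted p = 0.0304, adjusted p = 1.0, limma). Tumors 11 and 12, from the same mouse, were at 20.2 and 2.79. Of the other Y genes, Eif2s3y was at least at 3.19 in all 11 tumors, Uty at 1.83 and Kdm5d at 0.930. All 4 tested Y genes were lower in younger tumors, with a median log2 fold change of -0.21. The mean log2 level of Xist and the Y genes, Ddx3y included, was 1.75, 1.69 and 1.43 in tumors 12, 5 and 3. In every other tumor it was at least 1.98.

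Of 21 clock genes listed, 19 were tested and 7 were higher in younger tumors, with a median log2 fold change of -0.16. An unadjusted p under 0.05 was found for 2, in opposite directions, as against 1.83% of all genes, and 0 passed the test. Nr1d2 (REV-ERBβ), a repressor of Bmal1, was at 2.88, 1.86, 3.66, 11.9 and 2.13 in younger tumors 11, 12, 5, 8 and 3. In older tumors Nr1d2 was at 6.59, 6.75, 7.80, 9.46, 12.0 and 16 in tumors 4, 10, 9, 1, 6 and 7, and in livers it ran from 6.26 to 23.8. Of the younger tumors 4 were below all older tumors and below all livers, and only tumor 8 was not. The log2 fold change was -1.16 (standard error 0.36, 95% interval -1.94 to -0.38, unadjusted p = 0.00674, adjusted p = 1.0, limma), and -1.53 without tumor 8 (adjusted p = 0.249).

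Bmal1, the partner of Clock, was at 11.5, 11.2, 8.22, 5.56 and 9.56 in younger tumors 11, 12, 5, 8 and 3 and at 9.88, 4.82, 6.83, 7.09, 3.99 and 2.46 in older tumors 4, 10, 9, 1, 6 and 7. The groups overlapped, with a log2 fold change of 0.63 (95% interval 0.03 to 1.24, unadjusted p = 0.0401, adjusted p = 1.0, limma). Npas2, which can stand in for Clock, ran from 1.59 to 15.8 in younger and from 0 to 6.83 in older tumors (log2 fold change 1.14, 95% interval -0.10 to 2.39). Dbp, a target of the activators named after its values were seen, ran from 2.74 to 9.53 and from 3.29 to 29.5 (log2 fold change -0.90, 95% interval -1.92 to 0.12). Again tumor 8 was the younger tumor with low Bmal1 and high Dbp. In livers the log2 fold change of Nr1d2 was -0.31 and that of Bmal1 -0.27 (adjusted p = 0.924 and 0.937, limma). The time of day of collection is not given in the sources used here, so age and time of day cannot be told apart.

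Across the 10 mice, with tumors 11 and 12 averaged, log2 values of Bmal1 were compared with those of the other 18 tested clock genes. Bmal1 was correlated with Npas2 (Pearson's r = 0.962, permutation p = 3.00e-05, adjusted over 18 relations 0.00054; Spearman's rho = 0.867, permutation p = 0.00218, adjusted 0.0181). It was correlated with Cry1 as well (r = 0.837, permutation p = 0.00235, adjusted 0.0139; rho = 0.830, adjusted 0.0181). It was inversely correlated with Dbp (r = -0.923, permutation p = 0.00019, adjusted 0.00171; rho = -0.830, adjusted 0.0181) and with Nr1d2 (r = -0.824, permutation p = 0.00308, adjusted 0.0139; rho = -0.855, adjusted 0.0181). Without the 2 mice farthest from the median of Bmal1, r was 0.899, 0.794, -0.748 and -0.724 for Npas2, Cry1, Dbp and Nr1d2. Within the 7 E19 tumors it was 0.967, 0.861, -0.915 and -0.846 in the same order, and the 4 E20 tumors were too few. In the 6 livers it was 0.455, 0.992, -0.809 and -0.502. Of the other relations, Nfil3 and Clock passed the adjusted threshold by Pearson's r and Nfil3 and Per3 by Spearman's rho, and Per1, Hlf and Bhlhe40 had an r between -0.311 and 0.253.

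**Figure D4:**
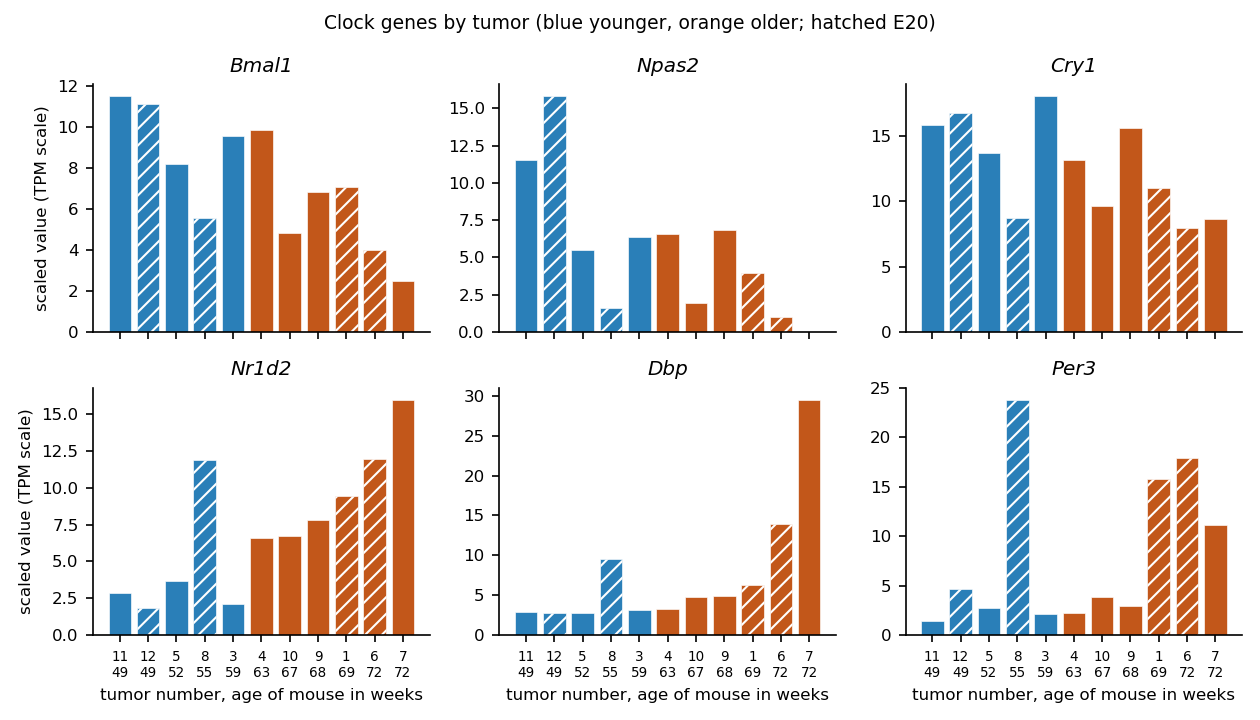
Scaled values of 6 clock genes in the 11 tumors, ordered by the age of the mouse in weeks, with younger tumors in blue, older ones in orange and E20 tumors hatched. Nr1d2 is below 4 in younger tumors other than tumor 8, where it is at 11.9, and between 6.59 and 16 in older tumors, while Bmal1 is at 5.56 in tumor 8 and at most 9.88 in older tumors.

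The promoters of these genes are shown because the levels of these genes were correlated over the tumors. RefSeq windows on GRCm38.p6, from 250 bases before to 50 after a gene's start, were found for 17 of the 20 clock genes in the table, some with several starts. Known clock elements were searched on both strands: the E-box CACGTG, bound by Bmal1 with Clock or Npas2, the D-box TTATGTAA, bound by Dbp, and the RORE, bound by Nr1d proteins. They were found in 7.15%, 0.938% and 0.219% of all 32851 windows. Among the clock genes 5 had an E-box, 1 a D-box and 1 the RORE. Windows of Cry1 (chr10:85185005-85185304, minus strand), Per3 (chr4:151044616-151044915, minus strand) and Bmal1 (RefSeq Arntl, chr7:113207261-113207560, plus strand) are given with the matched letters in capitals.
Cry1: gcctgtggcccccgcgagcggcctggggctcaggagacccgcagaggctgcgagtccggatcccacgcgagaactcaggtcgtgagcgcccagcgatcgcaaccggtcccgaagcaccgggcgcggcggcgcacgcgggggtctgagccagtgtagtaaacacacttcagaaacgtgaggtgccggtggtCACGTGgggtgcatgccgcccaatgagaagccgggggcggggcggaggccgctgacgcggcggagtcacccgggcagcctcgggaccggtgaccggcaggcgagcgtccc
Per3: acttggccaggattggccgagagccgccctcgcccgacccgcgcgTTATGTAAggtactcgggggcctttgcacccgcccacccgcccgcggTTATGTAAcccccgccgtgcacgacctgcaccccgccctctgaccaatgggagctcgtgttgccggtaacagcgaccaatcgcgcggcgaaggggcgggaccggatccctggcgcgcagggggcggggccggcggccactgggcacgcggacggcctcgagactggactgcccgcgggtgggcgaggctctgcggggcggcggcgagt
Bmal1: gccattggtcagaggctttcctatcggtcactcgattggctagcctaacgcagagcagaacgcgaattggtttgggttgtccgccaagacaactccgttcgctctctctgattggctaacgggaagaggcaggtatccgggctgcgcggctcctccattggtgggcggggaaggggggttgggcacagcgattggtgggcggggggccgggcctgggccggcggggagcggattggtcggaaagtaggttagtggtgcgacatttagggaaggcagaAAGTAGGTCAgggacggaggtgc
Npas2, Nr1d2 and Dbp had no match in their windows. A match is a description of letters and was not tested as a binding site.

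Whole profiles of tumors from different age groups were no farther apart than those within a group. Over the 11380 genes tested, Euclidean distances between a younger and an older tumor averaged 71.8 ± 11.6 (SD, 30 pairs). Distances averaged 67.8 ± 10.3 (SD, 10 pairs) between younger tumors and 80.1 ± 14.97 (SD, 15 pairs) between older ones. The mean between the groups was thus 3.36 smaller than the mean within them (exact permutation test over 462 assignments, one-sided, p = 0.965). Within E19 tumors alone the difference was -2.21 (exact permutation p = 0.714), and the 4 E20 tumors were too few for a test. Pairs of the same tag averaged 67.9 and pairs of different tags 78.6. Tumors 11 and 12, from 1 mouse and with different tags, were 69.9 apart, within the range of 64.5 to 80.8 of younger pairs from different mice with different tags. At least 4-fold differences on the log2(scaled value + 1) scale separated them in 146 genes, of which 51 were called between tags (34.9%, against 12.2% of all genes tested). Both tumors were themselves in the fit of the tag, so a higher share was built in and cannot be read as a result. Other younger pairs with different tags had between 96 and 256 genes with at least 4-fold differences.

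**Figure D5:**
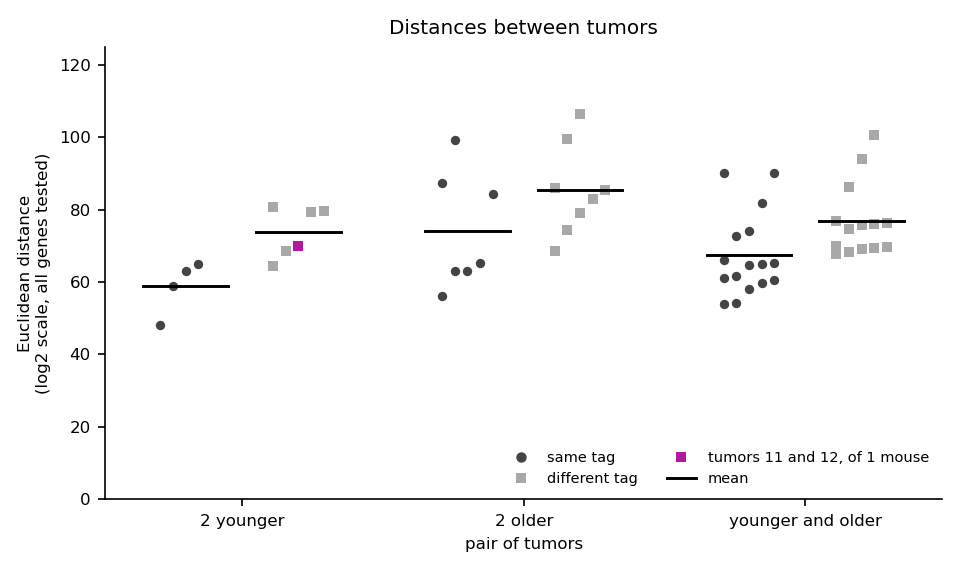
Euclidean distances on the log2 scale between pairs of tumors, by age group and by tag, with means as lines and the pair of tumors from 1 mouse in magenta. Pairs of a younger and an older tumor lie between 53.8 and 101, inside the span of the pairs within the groups.

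Younger tumors lay 48.3 ± 4.03 (SD, n = 5) from the center of their group and older tumors 56.4 ± 12.3 (SD, n = 6), where distances allowed for the number of tumors in the group. The difference, -8.17, did not pass (exact permutation test over 462 assignments, two-sided, p = 0.195, where the smallest possible two-sided p is 0.00433). Tumor 10 lay farthest, at 76.6, and without it the difference was -3.17 (exact permutation p = 0.373). Without tumor 7, which lay closest among the older tumors at 41.1, it was -12.0 (exact permutation p = 0.0318). Siglece, listed as the most abundant gene, took 31.5% ± 13.1 (SD, n = 5) of the total in younger and 31.9% ± 6.39 (SD, n = 6) in older tumors (exact permutation test, two-sided, p = 0.961). In livers it took 17.9% to 29.5%. Its scaled values were 146500 to 678000 in younger and 161200 to 449600 in older tumors, against 30750 to 48950 and 22090 to 50790 for Alb. Whether values of this size come from Siglece transcripts was not tested. The log2 fold change of Siglece after scaling was -0.07 (95% interval -0.97 to 0.83).

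In the livers, 0 of 12324 genes differed between younger and older mice at an adjusted p under 0.05 (0% called, limma), and 840 had an unadjusted p under 0.05. The age difference differed between tumors and livers in 0 genes (0% called, limma interaction), with 588 at an unadjusted p under 0.05. Both comparisons came from a single fit in which tumors and livers shared the estimate of spread. Both older livers carried E20, so age and tag were only partly separable there. With a pseudocount of 0.1 in place of 1, the adjusted counts were 17 and 10 in these comparisons.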

How the data were processed

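Poly-A RNA of 12 tumors and 6 livers was sequenced on a NovaSeq X with paired ends. The authors quantified it with Salmon against GRCm38, and the deposited values, treated here as a score, are TPM that were rounded to whole numbers, so no count test was used. 882 of 900 values compared with the study's own TPM were equal after rounding. In 8 lines an extra separator inside the gene name was repaired. Rounding leaves little precision in genes near 0.

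Ages come from the study's table of mice and not from the labels, matched by sample name. For tumors 3 and 10 the mouse number in the labels and that in the table differ in their digits, so these ages rest on the tumor number and tag. Values were divided by trimmed-mean factors (30% of ratios and 5% of levels trimmed, factors 0.694 to 1.27), genes at 1 or more in at least 5 tumors were kept, and log2(value + 1) was fitted with limma 3.58.1 (trend) in R 4.3.3, with p adjusted over all genes tested at a threshold of 0.05. For livers and for the interaction, a single fit held younger and older tumors and livers together. Its estimate of spread was shared, and genes at 1 or more in at least 5 of its samples were kept. The script was tested on simulated data. Distances, spread and shares used exact permutation tests, and correlations 1e+05 permutations (scipy 1.17.1). Tumors 11 and 12 entered as separate samples, and their mean was an alternative. Other alternatives changed the scaling, pseudocount, filter, tag term, age in weeks, sample weights, and the tumors included.

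The age groups and gene lists were chosen with earlier results of these data known. Named genes were Met, genes whose groups did not overlap with a mean log2 value of at least 2, up to 3 genes with the smallest unadjusted p of each list, and the most abundant gene. Others are said to be named after their values were seen. Single results for 2 genes of the lists are not reported here.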

Additional observations from a re-analysis of the deposited data

Results flagged for a closer look

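In 22 of 118 groups of values examined, the highest or the lowest tumor stood far from the rest of its age group by Dixon's criterion. Chance flags about 1 in 20 groups of values not chosen for their pattern, but several of these genes and lists were named after their values were seen, so the count cannot be read against chance. Of the 22, 6 were in tumor 10. Among older tumors it had high Glul (5921), Lect2 (651.5), pericentral level (6.662, mean log2) and antigen presentation level (6.146, mean log2), and low Lima1 (9.637) and periportal level (2.871, mean log2).

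Tumor 8, from a mouse of 55 weeks, stood apart from the other younger tumors in 6 genes. It was high in Nr1d2 (11.91), Dbp (9.525), Igf2 (7.143) and Glul (282.6) and low in Gldc (26.99) and Loxl4 (3.175).

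Other high values among older tumors were those of Ttc5 in tumor 1 (7.879), Pik3r2 in tumor 7 (17.23), Igf2 in tumor 6 (112.6), and Elovl3 (15.36) and Hamp (1354) in tumor 4. Pdgfra was at 0 in tumor 4. Among younger tumors, tumor 5 was high in Icam1 (18.27) and Gstp1 (1560), and tumor 11 was low in Ighm (1.44) and 1500015A07Rik (0).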

How the results depend on the processing

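No paired analysis was possible because no mouse gave tumors to both age groups. The count of 0 genes between tumor age groups became 1 in E19 tumors alone (n-TUtca2) and 3 in E20 tumors alone (Scarna10, Cyp4a14 and Acot1). It was 0 to 1 when each tumor was left out (Ttc5 without older tumor 1, Scarna10 without younger tumor 5). In these fits n-TUtca2, Scarna10, Cyp4a14 and Acot1 were at 0 in every older tumor included. They passed the filter only through the younger tumors, so their calls cannot serve as support for an age difference. Other settings gave 0, including the mean of tumors 11 and 12, the tag term and sample weights, and unadjusted counts ran from 118 to 939. With a pseudocount of 0.1 the livers gave 17 genes and the interaction 10. Leaving out each liver gave 0 to 2 genes for the livers, with 2 without older liver 3. Leaving out each tumor, the spread difference ran from -11.97 to -3.174 (exact permutation p = 0.0318 without older tumor 7), the distance difference from -5.419 to -1.42, and the difference in Siglece share from -5.841 to 2.131 percentage points, turning sign in 5 of 11 cases. Of 1236 values of 50 named genes under alternatives, 1227 kept direction and side of the threshold. The direction turned for Met (0.0036) and Siglece (0.16) in E19 tumors alone, for Lect2 (1.12) and Cd40 (-0.034) in E20 tumors alone, and for Siglece without any 1 of 4 tumors (range over all tumors left out -0.42 to 0.14). The cause was not tested. TPM keep no depth, so genes near 0 carry an unknown counting error.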
